A study of Mus musculus with 3 samples.

Results

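Plasma miRNAs after resistance exercise were set against those after aerobic exercise. The comparison rests on 2 of the 3 arrays of the series, 1 from mice that had done a single bout of resistance exercise and 1 from mice that had done aerobic exercise. It covers all 1900 probes with a mouse miRNA name. The donors were male C57BL/6 mice aged 8 weeks, an inbred laboratory strain, with no allele or drug named in the labels. They were fasted overnight, and exercised mice were bled from the vena cava 3 h after exercise. The remaining array, from normal caged mice of the same strain, sex and age, is given as a reference. Each array stands for 1 pool of plasma, 100 µl from each of 3 mice, labelled with Cy5 and hybridised once. The labels do not describe the exercise regimens. The series' text names a human chip, but the probes carry mouse names. No group had a replicate, so no difference below carries an error that covers mice, pools or arrays, and no p-value is given.

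miRNAs are short RNAs that pair through their seed, bases 2 to 8 from the 5′ end, with messenger RNAs and repress them. In plasma they are carried in vesicles, lipoproteins or protein complexes, and they come from blood cells, vessel walls, liver, muscle and other tissues. Muscle miR-1 and miR-133, red cell miR-451a and liver miR-122 are commonly read as traces of the tissue that released them. In a plasma pool, more releasing cells and more release per cell cannot be told apart.

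The main pattern was a small set of miRNAs brighter after resistance exercise on an array that was dimmer as a whole. miR-185-5p, described as a repressor of cholesterol synthesis and uptake genes, was 2.82-fold higher. miR-205-5p, a miRNA of stratified epithelia, was 2.12-fold higher. Among muscle miRNAs, miR-1a-3p was 1.74-fold, miR-133a-3p 1.72-fold and miR-133b-3p 1.59-fold higher. miR-122-5p of the liver was 1.38-fold lower. These folds are after scaling the arrays to each other. Without scaling they were, in the same order, 2.50, 1.79, 1.56, 1.47 and 1.32 higher and 1.64 lower. The arrays carry no measure of how such folds vary from pool to pool.

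The sequences of miRNAs that lead either direction, or that stand for a family described below, are given first. Each is a mature miRNA of RefSeq on GRCm38.p6, written 5′ to 3′, with its seed in capitals.
miR-205-5p: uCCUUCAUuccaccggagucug
miR-133b-3p: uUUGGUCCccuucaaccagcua
miR-6989-5p: uUGGGGACagaggcacaggaug
miR-24-3p: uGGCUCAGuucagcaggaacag
miR-23a-3p: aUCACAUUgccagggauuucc
miR-16-5p: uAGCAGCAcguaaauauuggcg
miR-195a-5p: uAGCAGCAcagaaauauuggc
let-7a-5p: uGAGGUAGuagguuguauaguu
let-7e-5p: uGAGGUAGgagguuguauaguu
miR-30a-5p: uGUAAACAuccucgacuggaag
miR-30e-5p: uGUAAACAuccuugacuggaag
miR-6993-5p: aGUGGGAGaaacgggugucuguc
miR-483-3p: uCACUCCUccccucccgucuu
miR-212-3p: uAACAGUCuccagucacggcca
miR-760-3p: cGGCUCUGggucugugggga
The first 5 were among the 12 miRNAs that stood highest after resistance exercise, and the last 4 among the 12 that stood lowest. The pairs with the same capitals share a seed and so a predicted set of targets.

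On GRCm38.p6, miR-205-5p lies at chr1:193507503-193507524 on the minus strand, inside the span of the non-coding gene Mir205hg. miR-133b-3p lies at chr1:20682834-20682855 on the plus strand, inside the span of Lincmd1, a non-coding RNA gene of muscle. miR-6989-5p lies at chr19:6346485-6346506 within Map4k2 and miR-6993-5p at chr19:10191380-10191402 within Fads1, both on the plus strand. miR-483-3p lies at chr7:142654932-142654952 on the minus strand, within the span of the growth factor gene Igf2. miR-24-3p has 2 loci, chr8:84208875-84208896 beside miR-23a-3p and chr13:63301251-63301272 within Aopep. The gene table gives spans only, so exons and introns were not told apart.

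The aerobic array was the brighter one. Its signal above the blanks, summed over all miRNA probes, was 1.33 times that of the resistance array. Before any scaling the median miRNA stood at -0.19 (log2 of intensity, resistance minus aerobic). Only 64 of the 1307 miRNAs detected on both arrays, 4.9%, were brighter on the resistance array. The 2 kinds of spike-in spots stood at -0.07 and -0.10 in the same sense. The labels do not say what made the aerobic array brighter, and its part in the results was not tested. Differences are therefore given after scaling, which forces both arrays to the same distribution of intensities, and for the members the results turn on also without it. A difference with no other word is a scaled one. The number of detected miRNAs was 1372 on the resistance and 1364 on the aerobic array, with blank means of 93.3 and 92.9 in raw intensity. The blanks scattered more on the aerobic array, with an SD of 3.05 against 1.85, so its detection floor was higher, at a raw intensity of 99.0 against 96.9. Of spots with no probe, 4.02% exceeded the floor of the aerobic array and 20.1% that of the resistance array, so a detection close to the floor is weak evidence.

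The gap between the arrays widened with brightness. In the 262 dimmest miRNAs the unscaled median was -0.11, and in the 262 brightest it was -0.36. Scaled medians of the same groups were 0.00 and -0.01. Before scaling, miRNAs rich in G and C also stood lower. The unscaled median was -0.11 for the 47 miRNAs with at most 40% of these bases, and -0.32 for the 71 with over 70%. Over 1124 miRNAs with a known sequence, Spearman's rho between the share of G and C and the difference was -0.46 unscaled and -0.19 scaled. The same share had a rho of 0.51 with brightness, and all these points come from the same pair of arrays. Among the 262 brightest, 178 miRNAs above the median share of G and C had medians of -0.37 unscaled and -0.02 scaled. The 44 at or below that share had medians of -0.17 and 0.12, and the rest had no known sequence. In this group a gap by composition thus remained after scaling. Composition and brightness thus moved together with the difference, and their part in it was not tested.

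**Figure D1:**
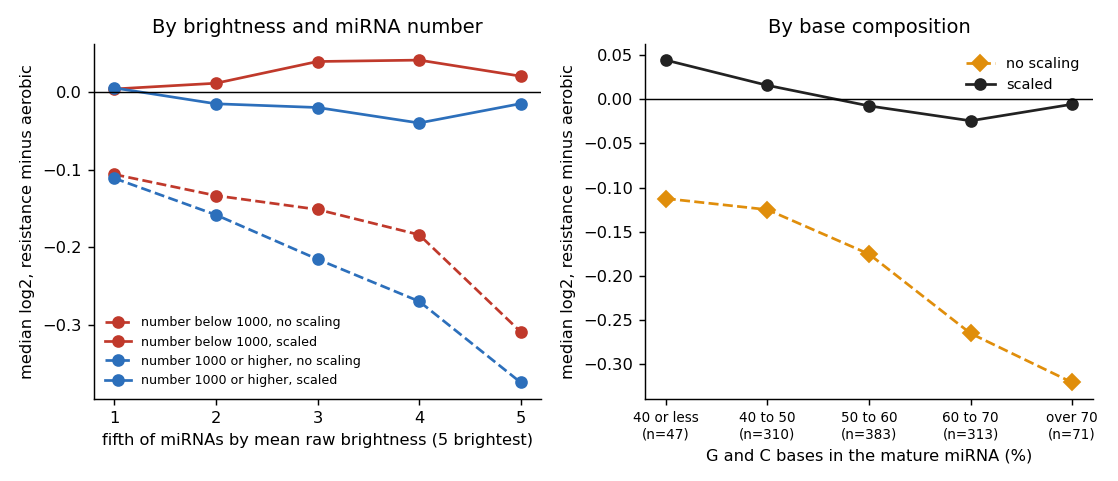
Median log2 difference, resistance minus aerobic, by brightness (left, 5 groups of equal size, split by miRNA number) and by the share of G and C bases in the mature miRNA (right). Without scaling the medians drop to -0.37 in the brightest high-numbered miRNAs and to -0.32 in those richest in G and C, while scaled medians stay near 0. The offset of 50 draws differences of dim miRNAs towards 0.

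Of the 1307 miRNAs detected on both arrays, 2 (0.153%) were at least 2-fold higher after resistance exercise and 0 (0%) at least 2-fold lower. Without scaling 1 (0.0765%) was higher and 0 (0%) lower. The authors' values, which have no offset and so spread dim miRNAs widely, gave 11 (0.842%) higher and 19 (1.45%) lower. A technical limit came from repeated spike-in spots, whose pooled SD was 0.11 on the log2 scale. That gives 0.32 for 2 SD of a difference between single spots. After scaling 25 miRNAs (1.91%) lay above this limit and 17 (1.3%) below it. Without scaling 6 (0.459%) lay above and 244 (18.7%) below. The 6 were miR-185-5p, miR-205-5p, miR-1a-3p, miR-133a-3p, miR-133b-3p and miR-6989-5p, and they also exceeded the limit after scaling. The spike spots are very bright. The 16 spots of Negative Control 1, close to background, gave a wider limit of 0.77. Their SD was 0.26 to 0.30 per array, and not all dim control spots scattered so widely. Negative Control 2 and Negative Control 3 had SDs of 0.05 to 0.12, and the blanks of 0.05 to 0.09. The QC-Probe spots had wider SDs of 0.63 to 0.92. After scaling 4 miRNAs (0.306%) exceeded the limit of 0.77 on the higher side and 0 (0%) on the lower. Without scaling miR-185-5p and miR-205-5p exceeded it on the higher side, and miR-6993-5p and miR-3102-5p.2-5p on the lower. The limit of 0.32 was passed more often by bright miRNAs. Of the 262 brightest, 23 (8.78%) lay past 0.32 after scaling, and of the 2 dimmest groups 0 did. The offset of 50 leaves dim miRNAs little room to pass 0.32. These counts therefore do not compare how far bright and dim miRNAs differed.

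**Figure D2:**
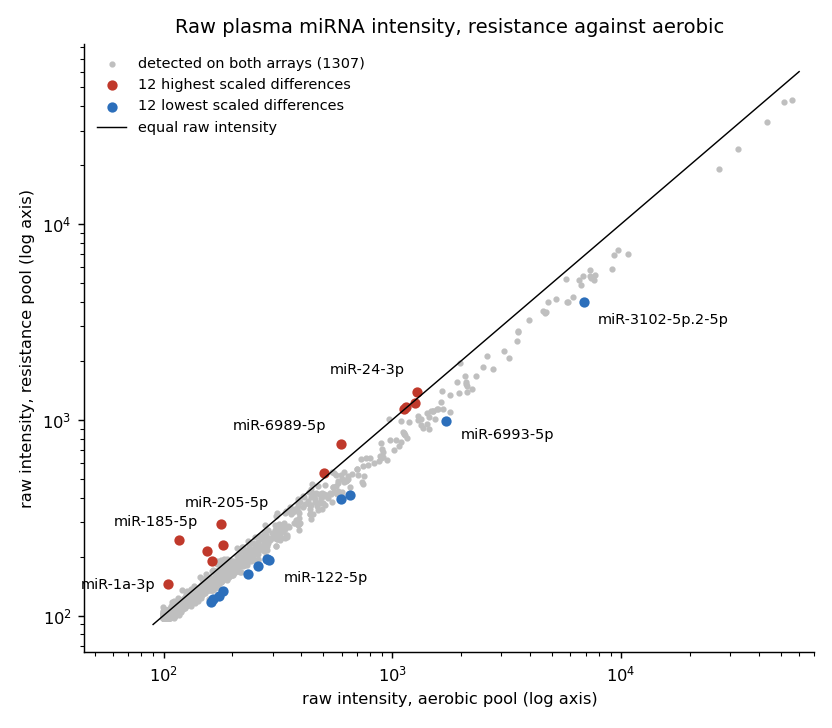
Raw intensity on the resistance array (vertical, log axis) against the aerobic array (horizontal, log axis), 1 point per miRNA detected on both, with the 12 highest and 12 lowest scaled differences in colour. Most of the 1307 points lie under the line of equal intensity, and 11 of the 12 highest lie above it.

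miR-185-5p had the largest difference. Its raw intensity was 117 in the aerobic and 243 in the resistance pool, against 106 in the caged pool. The resistance pool stood above the other pools. The aerobic spot lay under a threshold of 10 SD of the blanks, and the caged spot just above its own, which was 106. The log2 difference was 1.50 scaled and 1.32 unscaled, and the authors' values gave 3.03, an 8.16-fold difference. The size of the fold thus depends on how the dim aerobic spot is treated, while its direction was the same under each alternative tried. The other arm of the hairpin, miR-185-3p, did not share it. It read 189 in the aerobic and 153 in the resistance pool, with differences of -0.17 scaled and -0.41 unscaled.

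miR-205-5p, which with the miR-200 family represses the ZEB factors that drive epithelial cells towards a mesenchymal state, was the other miRNA past 2-fold. It read 175 in caged, 178 in aerobic and 294 in resistance plasma, so that the caged and aerobic pools lay close together and the resistance pool above them. The difference was 1.09 scaled and 0.84 unscaled, and 1.62 in the authors' values. It was the only miRNA past 2-fold after scaling with both spots above 10 SD of the blanks. The miR-200 family did not stand with it. miR-200a-3p, miR-200b-3p, miR-200c-3p, miR-141-3p and miR-429-3p read between 98.7 and 111 on these arrays, with differences from 0.01 to 0.12 scaled and from -0.09 to 0.00 unscaled. miR-203-3p, a miRNA of the epidermis, read 109 and 117, with a difference of 0.24 scaled and 0.10 unscaled.

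The muscle miRNAs followed. miR-1a-3p, which with miR-133 is made from shared muscle transcripts and promotes muscle differentiation, read 158 in caged, 104 in aerobic and 146 in resistance plasma. The resistance pool lay near the caged pool and the aerobic pool near background, under the 10 SD threshold. miR-133a-3p read 326, 155 and 213 in the same order. miR-133b-3p read 379, 181 and 230.3. For both, the resistance pool lay between the other pools. The scaled differences of these 3, resistance minus aerobic, were 0.80, 0.78 and 0.67, and the unscaled ones 0.64, 0.55 and 0.40. In the authors' values they were 2.62, 1.34 and 1.02. miR-133a-3p and miR-133b-3p are near-identical in sequence, so their spots may share signal.

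Apart from miR-486a-5p, the rest of the muscle list was at or near background. Of the miRNAs of heart and slow muscle myosin genes, miR-499-5p, miR-208a-3p and miR-208b-3p read between 85.2 and 91.9 on both arrays and were detected on neither. Skeletal muscle miR-206-3p read 97.0 and 100.1 and was detected only on the resistance array. miR-486a-5p, abundant in red cells too and measured on a probe that also names miR-486b-5p, read 506 and 462, with a difference of 0.18 scaled and -0.15 unscaled. Of 8 probes on the list 4 were detected on both arrays. After scaling all 4 were higher, as were 46.6% of all miRNAs compared, and 3 exceeded the spot limit. Their median was 0.72, against -0.01 for all miRNAs compared. Without scaling 3 of the 4 were higher, against 4.9% of all miRNAs compared, and the median was 0.48, against -0.19. The list median was above 0 under every alternative tried.

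**Figure D3:**
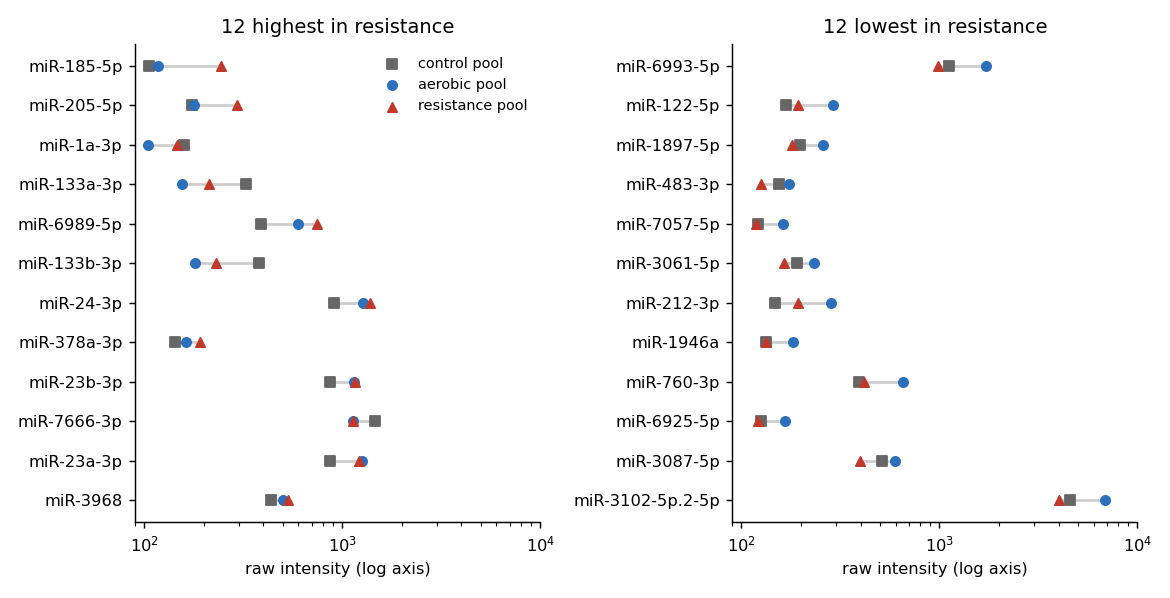
Raw intensity (log axis) of the 12 miRNAs highest (left) and lowest (right) in resistance against aerobic plasma, 1 mark per pool. On the right the aerobic pool is the brightest of the 3 for all 12 miRNAs, and on the left the resistance pool is the brightest for 7. The miRNAs were chosen by this difference, and the aerobic array had the largest summed signal of the 3. After scaling, miR-483-3p and miR-3087-5p stood highest in the caged pool.

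miR-24-3p, from the clusters it forms with miR-23 and miR-27 in vessel wall and blood cells, read 1278 in aerobic and 1387 in resistance plasma, a difference of 0.60 scaled and 0.12 unscaled. miR-23b-3p read 1148 and 1160.4, and miR-23a-3p 1258 and 1214. Their scaled differences were 0.46 and 0.43, and the unscaled ones 0.01 and -0.06, so that miR-23a-3p fell below 0 without scaling. The unscaled median of all miRNAs compared was -0.19. miR-27b-3p stood at 0.31 scaled and 0.04 unscaled, and miR-27a-3p at 0.16 and -0.16. Of the 7 probes on this list, 6 were detected on both arrays, and all 6 were higher after scaling, with a median of 0.37. Without scaling 3 of the 6 were higher, and the median turned to -0.02. Of all miRNAs compared 46.6% were higher after scaling and 4.9% without it.

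miR-378a-3p is encoded in an intron of the gene for the coactivator PGC-1beta and acts on oxidative metabolism. It read 142 in caged, 162 in aerobic and 191 in resistance plasma, with a difference of 0.50 scaled and 0.27 unscaled. Its other arm, miR-378a-5p, read 119 and 108 on the exercise arrays and stood at -0.11 scaled and -0.24 unscaled. Of 10 metabolic probes 7 were higher after scaling, against 46.6% of all miRNAs compared, with a median of 0.03. That median was -0.15 without scaling, and it was also below 0 with spike-in scaling. miR-103-3p stood at 0.27 and its relative miR-107-3p at 0.01, a gap within the spot limit. Without scaling they stood at 0.07 and -0.22.

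No function is given here for miR-6989-5p. It read 389 in caged, 599 in aerobic and 749 in resistance plasma, far above background on all 3 arrays. The difference was 0.68 scaled and 0.34 unscaled, and 0.76 in the authors' values. This was the brightest miRNA past the spot limit without scaling on the side of resistance exercise. Its other arm read 101 and 99.6, close to background. miR-7666-3p and miR-3968 completed the 12, with 0.44 and 0.42 scaled and 0.00 and 0.10 unscaled.

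On the lower side the largest difference was that of miR-6993-5p. It read 1121 in caged, 1723 in aerobic and 981 in resistance plasma, and stood at -0.52 scaled and -0.84 unscaled. The aerobic pool was the one that stood apart, and the caged and resistance pools lay close together. Its other arm, miR-6993-3p, read 100.3 and 100.5, close to background.

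miR-122-5p, the most abundant miRNA of hepatocytes, read 167 in caged, 290.2 in aerobic and 192 in resistance plasma. It stood at -0.46 scaled, -0.72 unscaled and -0.61 in the authors' values. miR-192-5p, miR-194-5p and miR-148a-3p, other miRNAs abundant in liver, stood at -0.06, 0.00 and 0.08 after scaling, within spot scatter, and at -0.28, -0.14 and -0.11 without it. The liver list, with 4 of 7 probes detected on both arrays, had a median of -0.03 scaled and -0.21 unscaled, and 0.01 with no detection filter.

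miR-212-3p, made from a locus that CREB activates in neurons and other cells, read 148 in caged, 282 in aerobic and 193 in resistance plasma. It stood at -0.41 scaled and -0.66 unscaled. Its other arm, miR-212-5p, read 119 and 104, at -0.18 and -0.33. miR-132-3p, from the same locus, read 93.6 and 95.9 and was detected on neither exercise array. miR-483-3p, from Igf2, read 174 in aerobic and 126 in resistance plasma, at -0.44 and -0.64. Its other arm, miR-483-5p, read 215 and 167, at -0.25 and -0.47. The hairpins of miR-212 and miR-483 thus had both arms on the aerobic side, with the second arm within the spot limit after scaling. The hairpins of miR-3061, miR-6925 and miR-7057, also among the 12 lowest, had both arms lower after scaling too. Their second arms stood at only -0.05, -0.09 and -0.03, within the spot limit. Those of miR-6993 and miR-760 had the second arm on the other side, at 0.06 and 0.03. Over all 388 hairpins with both arms compared, 131 had both lower after scaling.

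The rest of the 12 lowest were miR-1897-5p, miR-7057-5p, miR-3061-5p, miR-1946a, miR-760-3p, miR-6925-5p, miR-3087-5p and miR-3102-5p.2-5p. No function is given for them here. They stood between -0.46 and -0.38 scaled and between -0.78 and -0.61 unscaled. miR-3102-5p.2-5p was the brightest, with 6863 in aerobic and 4001 in resistance plasma. miR-760-3p read 653 and 415. miR-7057-5p read 161 and 118, and its fold of 1.34 was 2.13 in the authors' values. All 12 were above 10 SD of the blanks on both arrays.

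The unscaled ranking added miR-6913-5p, miR-6937-5p and miR-7235-5p on the lower side, at -0.72, -0.70 and -0.70. After scaling they stood at -0.35, -0.30 and -0.35. On the higher side it added miR-6919-5p, at 0.21 unscaled and 0.38 scaled, with raw intensities of 120.1 and 136. The aerobic spot of miR-6919-5p lay under 10 SD of the blanks.

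**Figure D4:**
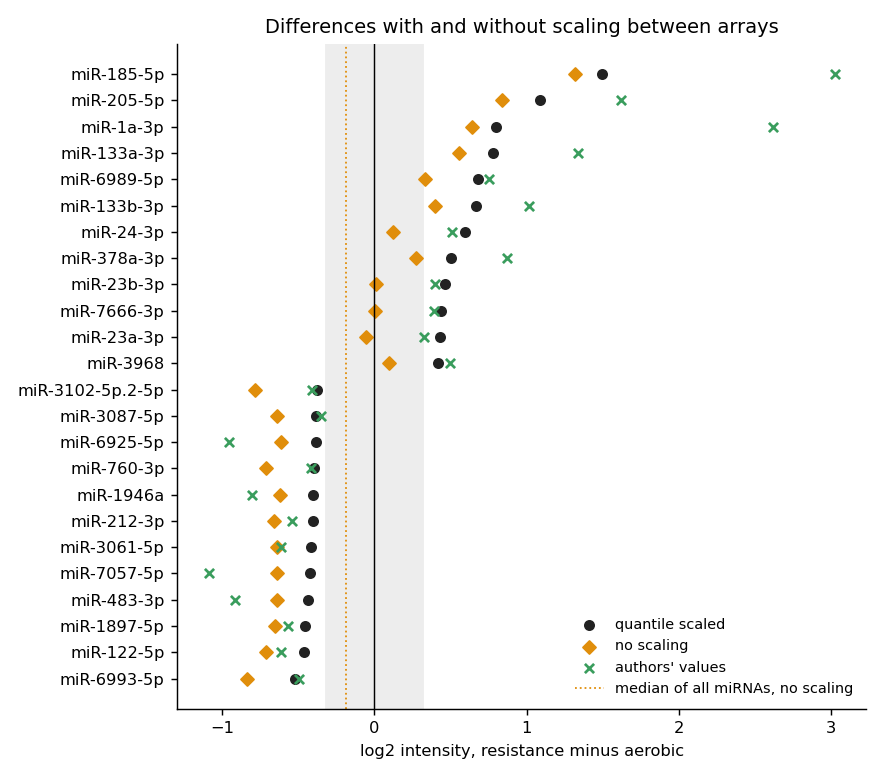
Log2 difference, resistance minus aerobic, of the 12 highest and 12 lowest miRNAs after quantile scaling (circles), with no scaling (diamonds) and in the authors' values (crosses). The grey band is 2 SD of spot scatter (0.32) on either side of 0, and the dotted line is the unscaled median of all miRNAs (-0.19). Unscaled values sit to the left of the scaled ones for all 24, and only miR-23a-3p moves across 0.

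The leading miRNAs of either direction can be described by kind. Of the 12 highest, 3 carry numbers of 1000 or above, while 8 of the 12 lowest do, against 62.7% of all miRNAs compared. Of the 12 highest 8 are 3p arms, and of the 12 lowest 8 are 5p arms. Over all miRNAs compared 42.2% are 3p and 41.2% are 5p arms, and the rest have no arm in their name. The count of high numbers among the 12 lowest is thus near the share over all miRNAs. The 6 of the highest with a known sequence hold a median of 54.5% G and C, and the 9 of the lowest 61.9%. Over all miRNAs compared, the 487 with numbers below 1000 had a median of 0.02 scaled and -0.14 unscaled. The 820 with higher numbers had -0.02 and -0.22. Of the 25 miRNAs above the spot limit after scaling 18 had numbers below 1000, and of the 17 below it 5 did. High-numbered miRNAs were also brighter, at a median raw intensity of 149 against 124 on the aerobic array, and the part of brightness in this was not tested.

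The 5p and 3p arms of a hairpin are cut from 1 precursor. Of 388 hairpins with both arms detected on both arrays, 87 had both arms higher after scaling, 131 both lower and 162 opposite signs. In 27 hairpins 1 arm lay past the spot limit, and in 0 did both. For miR-185, miR-205, miR-133b and miR-6993 the difference past the limit was on 1 arm. The other arm of miR-185 was well above background, at 189 in aerobic and 153 in resistance plasma. Those of miR-205, miR-133b and miR-6993 were close to background. In the same order of pools they read 100.1 and 99.4, 106.9 and 102.3, and 100.3 and 100.5. The offset leaves such dim arms little room to pass the limit, so whether they shared the difference was not tested.

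Families were set out by shared seed. For the counts that follow, 46.6% of all miRNAs compared were higher after scaling and 4.9% without it. The medians of all miRNAs compared were -0.01 scaled and -0.19 unscaled. For the 44 of the brightest miRNAs at or below the median share of G and C they were 0.12 and -0.17. The part of composition in the family results was not tested. Of 28 seeds carried by at least 3 of the miRNAs compared, 16 had a scaled median above 0. Without scaling 1 did, the let-7 seed GAGGUAG, at 0.01. The let-7 family represses growth genes such as Ras and Myc. All 11 probes on its list were higher after scaling, between 0.03 and 0.32, and their median was 0.25. Without scaling 6 of 11 were higher, and the median was 0.00. The list includes let-7j, whose seed is GAGGUAU. The 10 members with GAGGUAG had medians of 0.26 scaled and 0.01 unscaled. let-7a-5p read 388 in aerobic and 393 in resistance plasma, and let-7g-5p 210.4 and 220.2. The scaled differences of all 11 probes lay within the limit of 0.32.

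Members of the let-7 family can differ by a single base. let-7a-5p and let-7e-5p differ at 1 of 22 positions. let-7a-5p stood at 0.28, but let-7e-5p, at raw intensities of 202 and 187, stood at 0.03, a gap within the spot limit. let-7a-5p and let-7f-5p also differ at 1 position, and let-7f-5p stood at 0.30. Such near-identical miRNAs may bind each other's probes, so their differences are not independent.

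Hairpins within 10000 bases of each other were taken as a cluster. The cluster of let-7d, let-7f-1 and let-7a-1 at chr13:48536024-48538260 had a median of 0.28 scaled and 0.01 unscaled over 5 miRNAs. At the low end of the seeds stood GAGGGAG, carried by miR-3103-5p, miR-6965-5p and miR-7047-5p, with medians of -0.15 and -0.38. The seed of miR-6993-5p, GUGGGAG, is shared by miR-6922-5p, miR-7008-5p and miR-705, and its 4 members had medians of -0.11 and -0.39.

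The miR-15/16 family, which represses cell cycle genes such as cyclin D1, shares the seed AGCAGCA. miR-16-5p, also abundant in red cells, read 464 in caged, 968 in aerobic and 1010.0 in resistance plasma. In raw intensity both exercise pools lay above the caged pool and close to each other. The difference of miR-16-5p was 0.41 scaled, past the spot limit, and 0.06 unscaled. miR-195a-5p read 179 and 192, at 0.33 and 0.10. All 6 family probes detected on both arrays were higher after scaling, with a median of 0.25, and 3 of 6 without it, where the median was 0.02. The remaining family probe, miR-195b, was detected only on the aerobic array. It read 106 and 94.6, close to background, at -0.19 scaled and -0.30 unscaled. Counted by seed, the group also holds miR-6419, and its 7 miRNAs had medians of 0.24 scaled and -0.03 unscaled. The shares over all miRNAs compared were 46.6% and 4.9%.

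For miRNAs of the miR-30 type, abundant in heart and kidney, the array had 5 of 5 probes higher after scaling, with a median of 0.29. Without scaling 2 of 5 were higher and the median turned to -0.06. Over all miRNAs compared, 46.6% were higher after scaling and 4.9% without it. miR-30a-5p read 446 and 469, at 0.39 and 0.07, while miR-30e-5p, which differs from it at 1 of 22 positions, read 276 and 268, at 0.22 and -0.06. The miR-26 family had both probes higher either way, with medians of 0.28 and 0.05. The miR-99/100 and miR-125 list had 5 of 5 higher and a median of 0.20, which turned to -0.06 without scaling. The miR-29 family had a median of 0.12, which turned to -0.10 without scaling and was below 0 with spike-in scaling too. Of the 5 miR-30 probes 2 exceeded the spot limit, of the 2 miR-26 probes 1, and of the miR-29 and miR-99/100 and miR-125 probes 0. Of all miRNAs 1.91% did so on that side. Among those numbered below 1000 in the 2 brightest groups, 10.6% and 15.1% lay past it on either side.

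**Figure D5:**
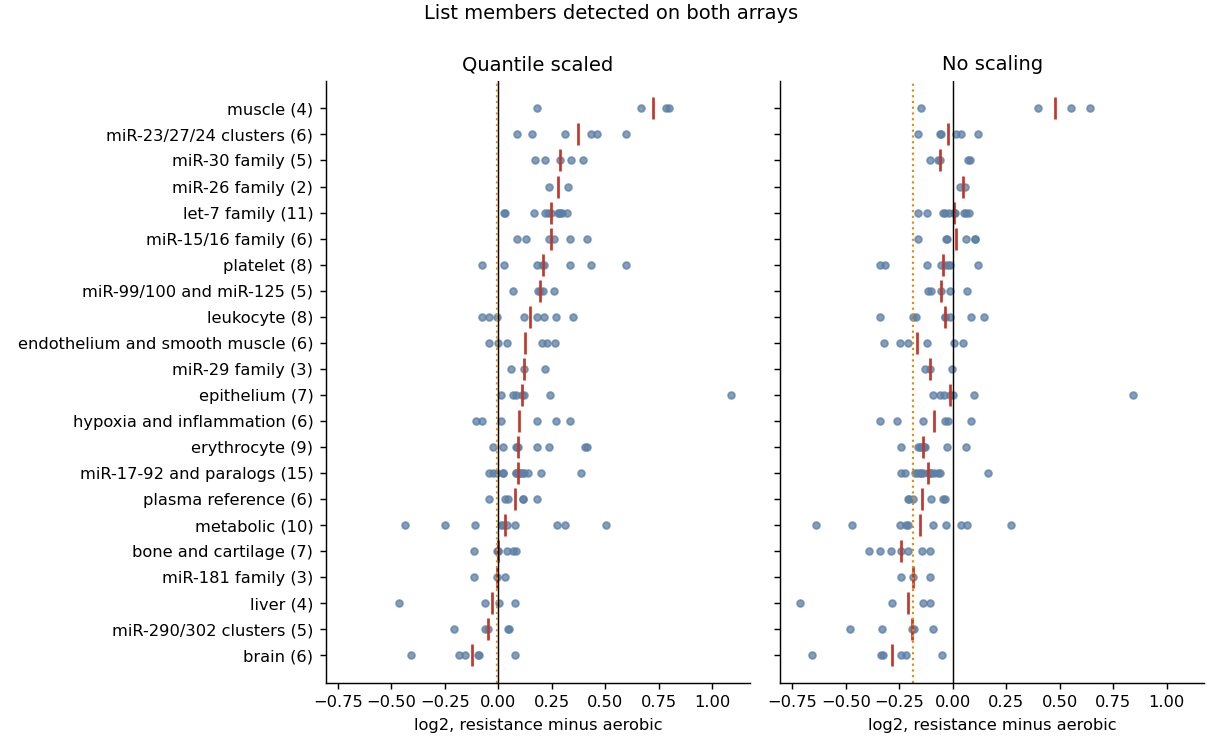
Log2 difference, resistance minus aerobic, of the members of 22 miRNA lists detected on both arrays, 1 point per probe, with quantile scaling (left) and without (right). Bars mark list medians, the dotted lines the median of all miRNAs compared, and the numbers in brackets the probes shown. The muscle list has the highest median in both panels, at 0.72 and 0.48.

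Blood cell lists follow, to be read against the 46.6% of all miRNAs compared that were higher after scaling. Of 9 erythrocyte probes 8 were higher after scaling, with a median of 0.09 that turned to -0.14 without scaling and was also below 0 with spike-in scaling. miR-451a, a red cell miRNA cut by Ago2 in place of Dicer, read 3056 in caged, 5741 in aerobic and 5245 in resistance plasma. It stood at 0.41 scaled and -0.13 unscaled, so its side of 0 depended on the scaling. The unscaled median of all miRNAs compared was -0.19. Its cluster partner miR-144-3p stood at 0.09 and -0.14. Over the whole list the summed raw intensity was 8659.9 in aerobic and 8060.5 in resistance plasma.

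Of 8 platelet probes 7 were higher after scaling, 3 of them past the spot limit that 1.91% of all miRNAs exceeded, with a median of 0.21 that turned to -0.05 without scaling. Those 3 were miR-24-3p, miR-23a-3p and miR-21a-5p, which is induced in many injuries. Bright miRNAs passed the limit more often. Among those numbered below 1000, 10.6% in the next to brightest group and 15.1% in the brightest lay past it on either side. miR-24-3p and miR-23a-3p are the same probes as in the cluster list of miR-24-3p above, so these list results are not independent. miR-21a-5p read 431 and 427, at 0.33 scaled and -0.02 unscaled. miR-223-3p, of neutrophils and platelets, stood on the other side at -0.08 and -0.34. Of 8 leukocyte probes 5 were higher, against 46.6% of all miRNAs compared, with a list median of 0.15 that turned to -0.04. miR-146b-5p, which restrains NF-kappaB signalling, was its 1 member past the limit, at 144 and 158 raw, 0.35 scaled and 0.15 unscaled. Its relative miR-146a-5p read 172 and 182, at 0.27 and 0.08.

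The endothelium and smooth muscle list had 4 of 6 probes higher after scaling, against 46.6% of all miRNAs compared. Its median of 0.12 turned to -0.17 without scaling and was below 0 with spike-in scaling too. Of the 15 probes compared of the miR-17-92 cluster and its paralogs, 12 were higher, with a median of 0.09 that turned to -0.12 without scaling and was also below 0 with spike-in scaling. miR-17-3p, the less abundant arm of miR-17, was its 1 member past the limit, at 171 and 189.7 raw, 0.38 scaled and 0.17 unscaled. The plasma reference list, of miRNAs often used to normalize plasma data, had a median of 0.08 that turned to -0.14 without scaling and was also below 0 with spike-in scaling. The epithelium list had a median of 0.11, and -0.01 without scaling. The hypoxia and inflammation list had 0.10, with -0.09 without scaling and a value just below 0 with spike-in scaling.

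The brain list had the lowest median of the 22 lists, scaled and unscaled. Of 6 brain probes detected on both arrays 5 were lower, with a median of -0.12 scaled and -0.28 unscaled, and of all miRNAs compared 51.6% were lower after scaling. The 1 member past the spot limit was miR-212-3p. miR-138-5p and miR-212-5p stood at -0.15 and -0.18, and the neuronal miR-124-3p at 0.08. miR-9-5p, miR-137-3p and miR-218-5p were detected on neither array. The bone and cartilage list had a median of 0.00 scaled and -0.24 unscaled, and the list of the miR-290 and miR-302 clusters -0.05 and -0.19.

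Some miRNAs were detected on 1 of the 2 arrays only, 65 on the resistance and 57 on the aerobic array. miR-590-5p read 91.7 in aerobic, at the blank level, and 156 in resistance plasma, against 91.1 in caged plasma. It was at least 2.02-fold higher after resistance exercise with scaling, and at least 1.84-fold without. Such a bound sets the bright spot against the lowest detected signal of the dim array. miR-1901 had the opposite pattern, with 185 in aerobic, 95.9 in resistance and 150.2 in caged plasma. It was at least 2.18-fold lower after resistance exercise with scaling and at least 2.49-fold lower without. No function is given for either here. After it, miR-101a-3p was at least 1.10-fold and miR-340-3p at least 1.09-fold higher. On the aerobic side, miR-1298-3p and miR-6350 were each at least 1.10-fold lower after resistance exercise. These lay within spot scatter. For scale, apart from miR-590-5p and miR-1901, the brightest such spot was 102 on the resistance and 107 on the aerobic array.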

How the data were processed

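The files hold 1 array for each of 3 groups, read out as the fluorescence of 3200 spots. Per the file headers, the deposited scanner files give the raw intensity on a linear scale, the background-subtracted intensity and the globally normalized intensity of each spot. From the values, the authors subtracted 1 constant per array, left dim spots empty and multiplied by 1 factor per array. Their value table repeats that normalized intensity within 0.05.

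The blank mean was taken from 896 blank spots after trimming 5% at each end. A miRNA was detected where its raw intensity exceeded that mean by 2 SD of the trimmed blanks. Raw intensities were corrected with normexp (limma 3.58.1, R 4.3.3, offset 50), and log2 values of the 1900 miRNA probes were then brought to a common distribution across all 3 arrays (quantile normalization). Scaled values are these, and unscaled values stop before the quantile step. Summaries were made in Python 3.11.15 with pandas 2.3.3. The calculation was tested on simulated data. Neither the labels nor the headers name the scanner or its software.

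Named miRNAs were the 12 largest scaled differences in each direction, the 8 largest unscaled ones, any at 2-fold with detection at 10 SD, the 3 largest bounds for miRNAs detected on 1 array, the other arms of these hairpins, and list members that define a cell type or passed the spot scatter. The members and lists were chosen with earlier results of these data known. With 1 array per group no test was run. Alternatives changed the scaling, the background correction and the detection threshold, and the authors' values were used in their place. Mature sequences and positions are from RefSeq (GRCm38.p6), which matched 1618 of the 1900 probes by name. The number of arrays limits the precision.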

Additional observations from a re-analysis of the deposited data

How the results depend on the processing

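The count of miRNAs at least 2-fold higher after resistance exercise was 2, and it was 1 with no scaling, with spike-in scaling, with raw intensities scaled or unscaled, and with detection at 10 SD. It was 5 with an offset of 0, 13 with the blank mean subtracted and 11 in the authors' values. The count of those 2-fold lower was 0, but 13 with the blank mean subtracted, 19 in the authors' values and 1 with no detection filter. The median of all miRNAs compared moved from -0.01 to -0.19 with no scaling. The muscle list's median of 0.72 was 0.48 with no scaling, 0.56 with spike-in scaling, 0.56 and 0.40 with raw intensities scaled and unscaled, 0.16 with no detection filter, 1.10 with an offset of 0, 1.16 with the blank mean subtracted and 1.18 in the authors' values. Of the 25 miRNAs above the spot limit, 20 were also above 0 with no scaling. Among the 12 highest and 12 lowest, the sign turned for miR-23a-3p, at -0.055 with no scaling and -0.051 for unscaled raw intensities. The median of the miR-23/27/24 list turned to -0.021 with no scaling. The causes were not tested. Median scaling and quantile scaling over the 2 exercise arrays left both 2-fold counts unchanged and moved both medians by less than 0.16. Of the 21 other list medians, 18 moved by more than the spot scatter of 0.16 with no scaling, 13 for unscaled raw intensities and 5 each with spike-in scaling and in the authors' values. Their sign turned for 13, 11, 7 and 1 lists in that order, and for 2 with no detection filter. The 13 lists that turned below 0 with no scaling stayed above the unscaled median of all miRNAs compared, -0.19. Apart from the miR-23/27/24 list, the scaled medians of these lists lay within 0.32 of 0. No paired analysis was possible because each group has 1 array. The number of arrays limits the precision.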
